A study of Mus musculus with 4 samples.

Results

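The regions described here are the isolated, higher peaks of the transcription factor KLF1 in mouse fetal liver. Members were the peaks of the authors' list with a height of 11 or more and no other listed peak, of any height, within 50 kb on the same chromosome. They numbered 372 of 945 listed peaks, or 39.4%. The height is the number of ChIP reads that cover the summit, and distances were taken between the midpoints of the listed intervals.

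Binding was measured by chromatin immunoprecipitation and sequencing (ChIP-seq), in which an antibody pulls down a protein together with the DNA it sits on, here with a rabbit polyclonal antibody to KLF1. Per the labels, 4 fetal livers of embryonic day 14.5 that lacked Klf3 (Balb/c Klf3 -/-) were strained and pooled, and the cells are called erythroid, which DNA libraries without expression values cannot check. Livers with intact Klf3, and any other treatment or time, were not among the samples. The control was input DNA of the same material, taken without antibody. Each group held 2 samples, run on SOLiD System 2.0 and 3.0, whose reads were deposited combined. Each group is thus 1 library, 17438921 ChIP reads and 47356494 input reads, and no value below has a replicate error. Unless stated otherwise, ratios compare these 2 libraries, scaled to all aligned reads, and intervals are exact 95% Clopper-Pearson intervals that cover counting error only.

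KLF1 (EKLF) belongs to the Krüppel-like family of zinc finger proteins and is made in red cell precursors. It binds GC-rich CACCC-type elements in promoters and enhancers, and it is known for switching on adult beta-globin and many genes of heme synthesis, the red cell membrane and the cell cycle. The fetal liver is the main site of red cell formation at this stage of gestation. KLF3 is a related protein that binds similar elements and mostly represses. Sites are given by chromosome and midpoint on the mouse build mm9. A genome or gene annotation of that build was not used here, so no site is assigned to a gene and no sequence is shown.

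Most isolated peaks were low, with a short tail of high ones. Heights ran from 11 to 44 with a median of 14. Members of height 11 or 12 numbered 130, those of 13 to 15 numbered 109, those of 16 to 19 numbered 64, and 69 reached 20 or more. The other 132 peaks of height 11 or more had a neighbour within 50 kb. Those grouped peaks had the same median height of 14 but reached 57, and of the 20 listed peaks of height 31 or more only 10 were isolated. The members were chosen by height and distance, both taken from the ChIP reads, so these values describe the choice and test nothing.

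**Figure D1:**
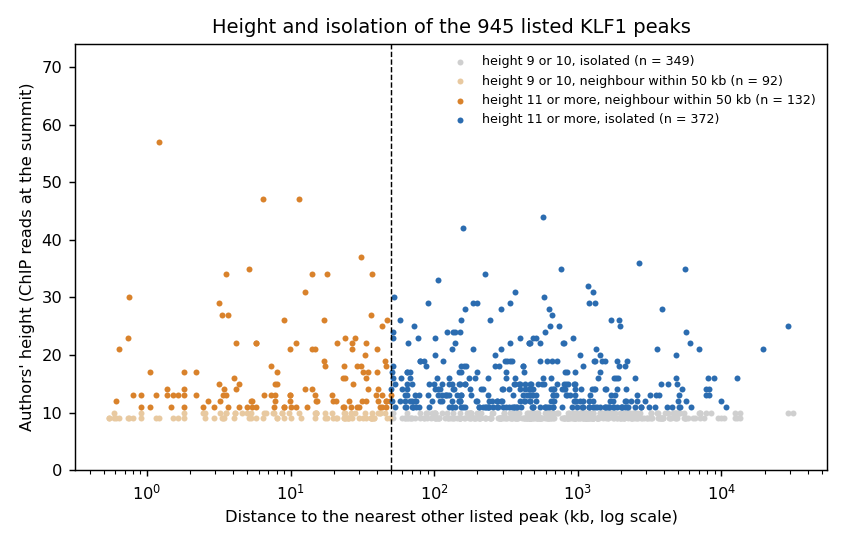
Height of each listed peak (ChIP reads at the summit) against the distance to the nearest other listed peak in kb, on a log axis, with the 50 kb limit as a dashed line. Isolated peaks of height 11 or more are blue, and the 3 highest peaks of the list lie among the grouped ones, left of the line.

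The highest isolated site lay on chromosome 17 at 26651596. Its summit was covered by 44 reads of the ChIP and 2 of the input, a scaled ratio of 59.7 (15.6 to 509). On chromosome 14 at 70866216 the numbers were 42 and 1, a ratio of 114 (19.4 to 4611). Both summits stood far above the input, and the low input count leaves the ratio wide open. The site on chromosome 15 at 85935903 had 36 ChIP and 4 input reads, a ratio of 24.4 (8.76 to 94.5). On chromosome 8 at 126512748 it was 31 and 1, a ratio of 84.2 (14.0 to 3431). In all 4 the ChIP count was at least several times the input count even before scaling.

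Some high summits also stood on raised input. At 62177802 on chromosome 4, 35 ChIP reads met 10 input reads, the most input at any member summit, and the ratio was 9.50 (4.61 to 21.5). At 103708834 on chromosome 3 the counts were 35 and 9, a ratio of 10.6 (4.98 to 24.98). At 86028020 on chromosome 6 they were 30 and 8, a ratio of 10.2 (4.56 to 25.7). These 3 sites had the most input of all members. Since each listed summit was at least 5-fold above input, such input counts can occur only at high summits. The intervals of their ratios overlapped that of the site on chromosome 17 with the greatest height.

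Among the remaining members of the highest 20, heights ran from 28 to 34. Chromosome 4 held the sites at 151334800 (34 ChIP reads, 2 input reads) and 124283662 (29 and 2). Chromosome 17 held 29067432 (33 and 3) and 26079774 (31 and 5), and chromosome 15 held 56455313 (32 and 2). On chromosome 5 lay 65256114 (30 and 5) and 139673057 (29 and 4), on chromosome 8 lay 24164689 (29 and 3) and 107824107 (29 and 5), and on chromosome 1 lay 137838413 (29 and 5). The site at 40726672 on chromosome 10 had 29 ChIP reads and 7 input reads. On chromosome 2, 103962301 had 28 ChIP reads and 0 input reads, and 125973647 had 28 and 6. ChIP exceeded input at each of these sites before and after scaling.

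With 1 read added to each count, all 372 members were enriched 5-fold or more at the summit. So were all 945 listed peaks (100%), and the lowest value of any was 5.04. The count therefore carries no information on the members. A 10-fold excess was reached by 203 members, against 41.1% of all listed peaks, but the height that chose the members sets this share too. The median over members was 10.9-fold, the same as over the grouped peaks of that height.

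Beside the summits, ChIP reads also exceeded input. Reads that start beyond 100 bp and no farther than 300 bp from a summit do not cover it when extended, and so are not part of the height. In these flanks the members held 4108 ChIP reads and 3883 input reads, a ratio of 2.87 (2.75 to 3.00). The ratio was 2.80 (2.61 to 3.01) for grouped peaks of height 11 or more and 1.54 (1.46 to 1.63) for isolated peaks of height 9 or 10. The intervals of isolated and grouped peaks of height 11 or more overlapped almost fully. All of these come from the ChIP to input contrast that chose the peaks and are given without a test.

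Flank enrichment was larger for higher members. It was 2.24 (2.07 to 2.44) at heights of 11 or 12, 2.49 (2.28 to 2.71) at 13 to 15, 3.01 (2.72 to 3.33) at 16 to 19 and 4.39 (4.01 to 4.81) at 20 or more. The lowest band did not overlap the highest, while the lower 2 bands overlapped each other. Grouped peaks in the same bands were at 2.20 (1.92 to 2.52), 2.13 (1.83 to 2.48), 2.50 (2.09 to 3.00) and 4.24 (3.75 to 4.79), each overlapping the interval of the isolated peaks. At the lower edge of the choice, the 82 isolated peaks of height 11 had a flank ratio of 2.21 (1.99 to 2.46), and the 120 isolated peaks of height 10, just outside it, had 1.91 (1.75 to 2.09).

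**Figure D2:**
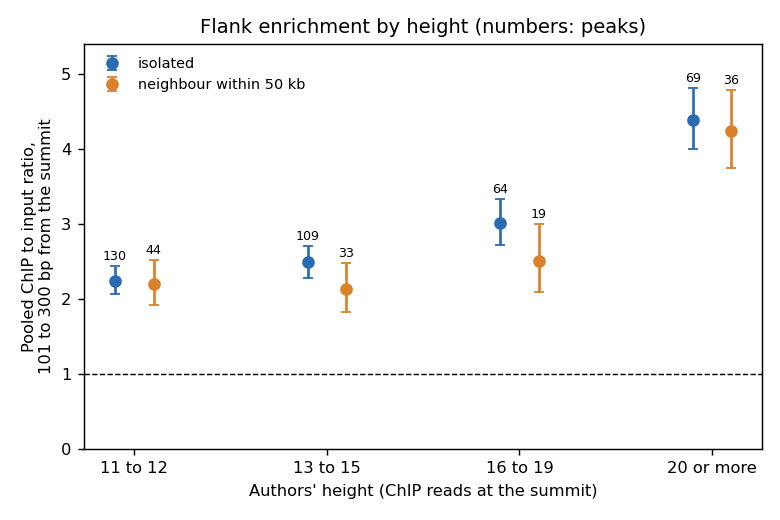
Pooled ChIP to input ratio of reads starting between 100 and 300 bp from the summit, by height band, for isolated peaks (blue) and peaks with a neighbour within 50 kb (orange). Bars are exact 95% intervals for counting error, numbers are peaks, and the dashed line marks equality. Both kinds lie near 2.2 at heights of 11 or 12 and above 4 at 20 or more.

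Single members differed widely in their flanks. With 1 read added to each count, the flank ratio lay between 0.339 and 27.2, its median was 2.72, and 252 members (67.7%) reached 2 or more. Over all listed peaks 52.9% did, and over the grouped peaks of height 11 or more 66.7% did. The read was added before scaling, so a site with no flank read in either library has a ratio of 2.72 and passes. Of the 252 members, 6 had at most 1 ChIP read in the flanks and passed mainly through the added read. The share was 56.2% at heights of 11 or 12 and 85.5% at 20 or more.

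The largest flank ratio belonged to a site of moderate height, 40980570 on chromosome 9, with a height of 18. It had 19 ChIP reads and 1 input read in the flanks, and its summit had 7 input reads. Next came 139673057 on chromosome 5 with 30 ChIP and 4 input reads, a flank ratio of 16.8. The highest member of all, on chromosome 17 at 26651596, followed with 35 and 6, a flank ratio of 13.97. The site on chromosome 8 at 126512748 had 26 and 5, and that on chromosome 11 at 117642309, of height 22, had 20 and 4. In these 5 sites, picked for their flank ratios, flanks and summit held several times more ChIP than input reads after scaling. Every listed summit was at least 5-fold above input, so this excess follows from the choice.

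At the other end, some members had a summit without flanks. On chromosome 9 at 62456407, with a height of 14, the flanks held 1 ChIP read and 15 input reads, a flank ratio of 0.339. On chromosome 14 at 104736209 the summit had 21 ChIP reads and no input read, but the flanks had only 1 ChIP read and 9 input reads. Its reads lay on both strands, 12 forward and 9 reverse. The other 3 of the 5 lowest were 153394842 and 57482042 on chromosome 2 and 119945034 on chromosome X, with 0 or 1 ChIP read in the flanks. Of the 20 highest members, 18 had a flank ratio of 2 or more. The exceptions were 65256114 on chromosome 5, with 30 ChIP reads at the summit but 5 against 15 input reads in the flanks, and 125973647 on chromosome 2, with 28 at the summit and 6 against 15 beside it.

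The excess of ChIP reads grew smaller with distance. Around the members the scaled ratio was 1.46 (1.38 to 1.54) at 300 to 500 bp and 1.14 (1.10 to 1.18) at 500 to 1000 bp. At 1000 to 2000 bp it was 1.05 (1.03 to 1.08), and from 2000 to 5000 bp it was 0.986 (0.970 to 1.002). It was 0.977 (0.965 to 0.990) up to 10 kb and 0.949 (0.944 to 0.953) up to 50 kb. Relative to that outermost ring, ChIP reads were 1.15 times as dense at 1000 to 2000 bp and input reads 1.04 times. At 2000 to 5000 bp both were still denser than there, 1.08 times in the ChIP and 1.04 times in the input. Around grouped peaks of height 11 or more the ratio was 1.21 (1.16 to 1.26) at 1000 to 2000 bp and 1.11 (1.09 to 1.14) at 2000 to 5000 bp, distances at which their listed neighbours can lie.

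Within 100 bp of the summit, reads that point away from it do not cover it and so did not count toward the height. Members held 1554 such ChIP reads against 1040 input reads, a ratio of 4.06 (3.75 to 4.39). The ratio was 3.901 (3.43 to 4.44) for grouped peaks of the same heights and 1.73 (1.56 to 1.92) for isolated peaks of height 9 or 10.

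The height counts forward reads before a summit and reverse reads after it, but only within 100 bp, so the direction of reads in the flanks was not part of it. Fragments around a bound site give forward reads before it and reverse reads after it. Upstream flanks of the members held 1959 ChIP reads, of which 62.1% (59.9% to 64.2%) were forward, past a two-sided exact binomial test against equal shares (adjusted p = 1.71e-26 over 4 tests). Downstream, 37.1% (35.1% to 39.2%) of 2149 ChIP reads were forward (adjusted exact p = 1.94e-32). In the input the shares were 52.6% upstream (50.3% to 54.8%, adjusted exact p = 0.039) and 49.4% downstream (47.2% to 51.6%, adjusted exact p = 0.578). The tests count reads of 1 library as independent, although they are pooled over sites chosen by height. The height favours summits with reads of this same direction nearby, and the upstream input also passed the threshold. Equal shares may thus not be the right baseline at such summits, and the p-values do not test binding.

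Taking both sides at once, 62.5% (61.0% to 64.0%) of the members' ChIP flank reads pointed toward the summit, and 51.6% (49.97% to 53.1%) of the input reads did. The lean was 58.5% at heights of 11 or 12, 59.6% at 13 to 15, 63.6% at 16 to 19 and 67.7% at 20 or more. Grouped peaks of height 11 or more stood at 61.8% (59.4% to 64.2%). The difference from the members was 0.68 percentage points (95% Newcombe interval -2.11 to 3.49) and missed the threshold in a two-sided Fisher's exact test on reads (p = 0.648). For isolated peaks of height 9 or 10 the share was 54.7% (52.5% to 56.9%).

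**Figure D3:**
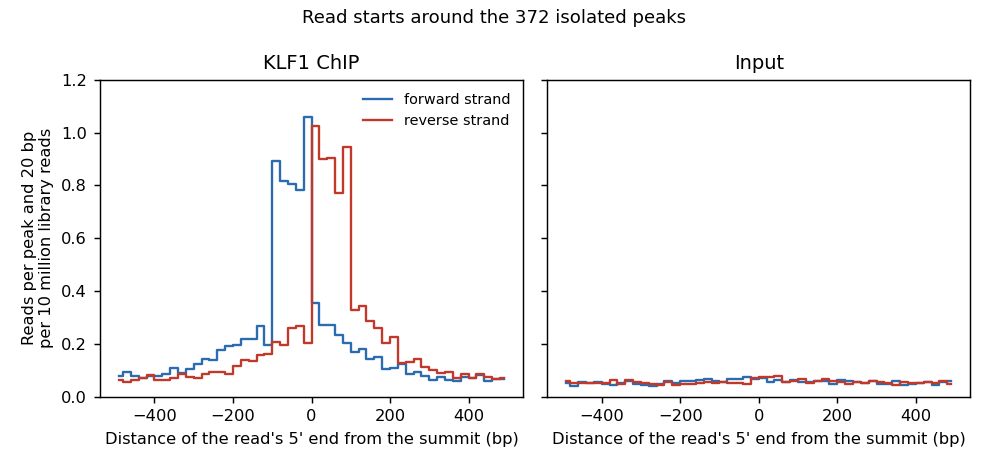
Read starts within 500 bp of the 372 isolated summits in 20 bp bins, per peak and scaled to library size, for ChIP (left) and input (right), with forward reads blue and reverse reads red. The steep blocks within 100 bp are set by the choice of summits, while forward reads beyond them lie mostly before the summit and reverse reads mostly after it. The input shows only a slight rise near the summit, 1.21 times the density at 10 to 50 kb within 100 bp.

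A small set of members had nearly all reads on 1 strand. Over the members, the forward share of reads covering the summit had a median of 50% and lay between 30% and 70% at 306 sites. At 14 of the 372 sites, 90% or more of the reads lay on 1 strand, 5 times the forward and 9 times the reverse. Such a bias occurred at 3.07% of all listed peaks and at 13 of the 349 isolated peaks of height 9 or 10. These shares were close to that of the members, so the bias was not particular to them. It occurred at 2 of the 132 grouped peaks of height 11 or more and at none of the 69 members of height 20 or more. The threshold of 90% was chosen after these values were seen.

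At 7 of the 14 sites no read lay on the other strand. The highest of these 7 were on chromosome 2 at 63137609 and on chromosome 18 at 46029675. Each had 16 ChIP reads, all reverse and none forward. At the first, the 5' ends of the 16 reads lay within 28 bp, the flanks held no read of either library, and all 7 input reads at the summit were reverse as well. The second had 5 input reads, again all reverse, and no read of either library in its flanks. On chromosome 13 at 22690491 the same held for 13 ChIP reads and 5 input reads. On chromosome 5 at 115866943 the reads were forward, 12 in the ChIP and 5 in the input, but the flanks held 4 ChIP and 19 input reads.

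Over the 14 one-sided members, 58 of 65 input reads at the summit lay on the strand that held most ChIP reads (89.2%), against 50.7% at the other 358 members. Their listed intervals were mostly wide, with a median of 71.5 bp against 4.0 bp. They were 61 to 83 bp long at 9 sites and 25 bp or less at the others. Flanks held a median of 1.0 ChIP read and 3.5 input reads, where the other members had 10 and 10.5. At most 1 ChIP read lay in the flanks of 8 of the 14 sites, and of 8 of the other 358. The 5' ends on the main strand spanned a median of 28 bp, against 89 bp at the other members. Short spans occurred there too, down to 14 bp. Their pooled flank ratio was 1.01 (0.635 to 1.56), against 2.91 (2.78 to 3.04) for the other members. At 12 of the 14 sites most input reads lay on the strand that held most ChIP reads. At 157978586 on chromosome 2 and 20322235 on chromosome 7 they lay on the other strand. Pooled over the 14 sites, no excess of ChIP reads was detectable beside them at this depth. Whether KLF1 is bound was not tested at these 14 sites or at any other member, and every member rests on the list alone.

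**Figure D4:**
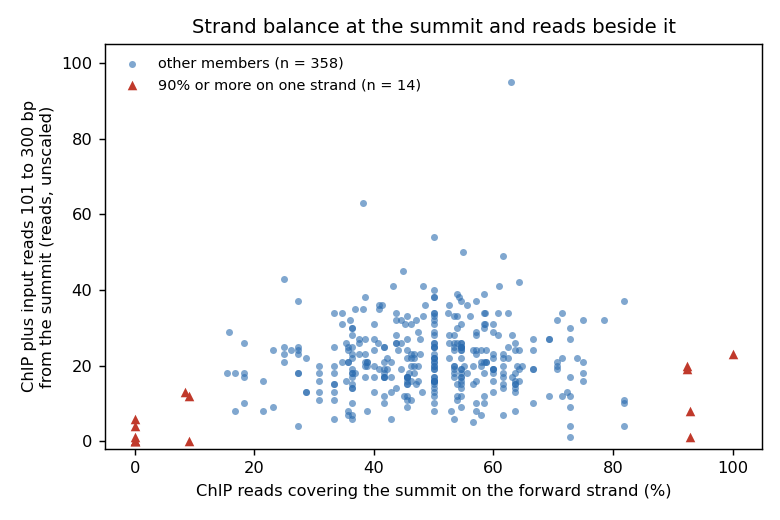
Share of ChIP reads covering the summit that lie on the forward strand (x axis, percent) against the reads of both libraries between 100 and 300 bp from it (y axis, unscaled), 1 point per isolated peak. The 14 sites with 90% or more of reads on 1 strand are red triangles, and several have no flanking read at all.

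Input reads were themselves somewhat dense at the members. Between 0 and 10 of them covered a summit, the median being 3, and 20 members had none. Relative to the mean input coverage of the same chromosome the median was 1.58 times, and 72 members were below that mean. At the grouped peaks the median was 1.65 times. Sequence that no read can be aligned to is part of the length behind that mean and lowers it. Every listed summit was at least 5-fold above input, which limits how many input reads a summit of a given height can have. No summit of height 9 or 10 had more than 4, so input is not compared between heights. Measured against input 2000 to 10000 bp from the same summit instead, a comparison added after seeing the data, the members' median was 1.19 times. That of the grouped peaks was 1.15 times. Summed over the members, input within 100 bp was 1.21 times as dense as at 10 to 50 kb.

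The pileups were narrow. At 50% of the summit height or more, they spanned a median of 140.5 bp, with quartiles of 116 and 173 bp. The shortest possible span is set by the length to which reads were extended, 100 bp beyond the 5' end. The median was 134.5 bp at heights of 11 or 12 and 155 bp at 20 or more. It was 135 bp for grouped peaks of height 11 or more and 115 bp for isolated peaks of height 9 or 10. At the narrow end, 65 members spanned 110 bp or less. Only 9 spanned over 300 bp, and the widest was on chromosome 1 at 59010872, with 502 bp at a height of 16. The widest among the 20 highest was the site on chromosome 4 at 62177802, with 342 bp and the most flank reads of all members, 65 ChIP and 30 input. The site on chromosome 14 at 104736209, with a height of 21, was at that shortest span.

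Members differed widely in how far they stood from other peaks. The distance to the nearest listed peak had a median of 0.460 Mb and reached 29.4 Mb. It exceeded 0.25 Mb for 242 members, 1 Mb for 110, 5 Mb for 21 and 10 Mb for 5. The nearest listed peak had a height of 11 or more for 217 members and of 9 or 10 for 155. The median was 0.483 Mb at heights of 11 or 12, 0.463 Mb at 13 to 15, 0.357 Mb at 16 to 19 and 0.463 Mb at 20 or more, with no steady order.

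The most remote member lay on chromosome X at 39372687. It had a height of 25, 3 input reads at the summit and 24 ChIP against 8 input reads in the flanks, a flank ratio of 7.54. The nearest listed peak was 29.4 Mb away, on a chromosome with only 2 members. The next, on chromosome 6 at 8295654, had a height of 21, lay 19.5 Mb from its neighbour and had a flank ratio of 1.81. The others beyond 10 Mb were 7790670 on chromosome 9, 13094715 on chromosome 18 and 196502140 on chromosome 1, with heights of 16, 11 and 12 and flank ratios of 5.09, 3.39 and 2.44. In the flanks of the site on chromosome 6 lay only 5 ChIP and 8 input reads, and the scaled ratio without the added read has an interval of 0.437 to 5.88.

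At the distance limit, the nearest members were 144685846 on chromosome 5 with 50157 bp and 24289453 on chromosome 17 with 50597 bp, and 49 members had a neighbour within 100 kb. Just inside the limit and so not members, 107259112 and 107308892 on chromosome 11 lay 49780 bp apart. Their heights were 13 and 12, and each had a flank ratio of 2.72, where the 2 members just beyond the limit had 4.60 and 2.94.

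Isolation in the list did not mean that no other pileup was near. A stretch of 8 or more ChIP reads with a 5-fold excess, 1 read below the lowest listed height, lay 1 to 50 kb from 47 members (12.6%) and was not listed. This was the case for 11.5% of all listed peaks, for 6.59% of isolated peaks of height 9 or 10 and for 18.2% of grouped peaks of height 11 or more. Counted once where windows overlap, 48 such stretches lay in 36.0 Mb around the members, or 1.33 per Mb. Over the chromosomes as a whole, outside 1 kb of any listed peak, there were 707 in 2579 Mb, or 0.274 per Mb. Sequence that no read can be aligned to is part of the latter length. The share with such a stretch had no steady order by height, at 12.3%, 16.5%, 9.38% and 10.1% from the lowest band to the highest. Only 2 members had an unlisted stretch of 9 or more, 139858351 on chromosome 5 with 10 reads and 94859107 on chromosome 11 with 9.

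Some members also had many ChIP reads over a position close to the summit. Between 300 and 1000 bp from the summit, 15 members had 8 or more ChIP reads over some position. This held for 6.24% of all listed peaks and for 21 of the 132 grouped peaks of height 11 or more. The count required no excess over input and no dip in coverage between that position and the summit. It includes sites below 5-fold, such as 62177802 on chromosome 4 (2.13-fold) and 26079774 on chromosome 17 (4.07-fold). Whether the reads there formed a pileup apart from that of the summit was not tested. On chromosome 15, beside the summit of height 36 at 85935903, 12 ChIP reads and 1 input read covered 85935583. On chromosome 14, beside the summit of height 23 at 30880258, 10 ChIP reads and 2 input reads covered 30879948. On chromosome 7, near the summit of height 11 at 25940635, 11 ChIP reads and 3 input reads covered 25940936, the nearest position counted on that side. These 3 exceeded input 17.7-fold, 9.96-fold and 8.15-fold with 1 read added to each count.

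Members were spread over the 19 autosomes and chromosome X. Compared with each chromosome's share of input reads, chromosome 5 held 36 members where 22.8 were expected, 1.58 times (1.12 to 2.15). Chromosome X held 2 where 12.5 were expected, 0.160 times (0.0193 to 0.572), on input coverage of 0.983 reads against 1.70 to 2.27 on the autosomes. For the other 18 chromosomes the interval included 1, with chromosome 2 at 38 against 27.8 (0.983 to 1.84). These intervals are not adjusted for the 20 chromosomes. The part of read density in the number on chromosome X was not tested.

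How many of the higher peaks were isolated differed from one chromosome to the next. On chromosome 2, 38 of 39 peaks of height 11 or more were isolated (97.4%), and on chromosome 9, 25 of 27 (92.6%). On chromosome 17 it was 14 of 27 (51.9%), on chromosome 13 it was 12 of 23 (52.2%) and on chromosome 11 it was 21 of 38 (55.3%). The rule fixes these shares through the 50 kb distance, so they describe where the grouped peaks lie. Chromosome 17 nevertheless held 3 of the 10 highest members.

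**Figure D5:**
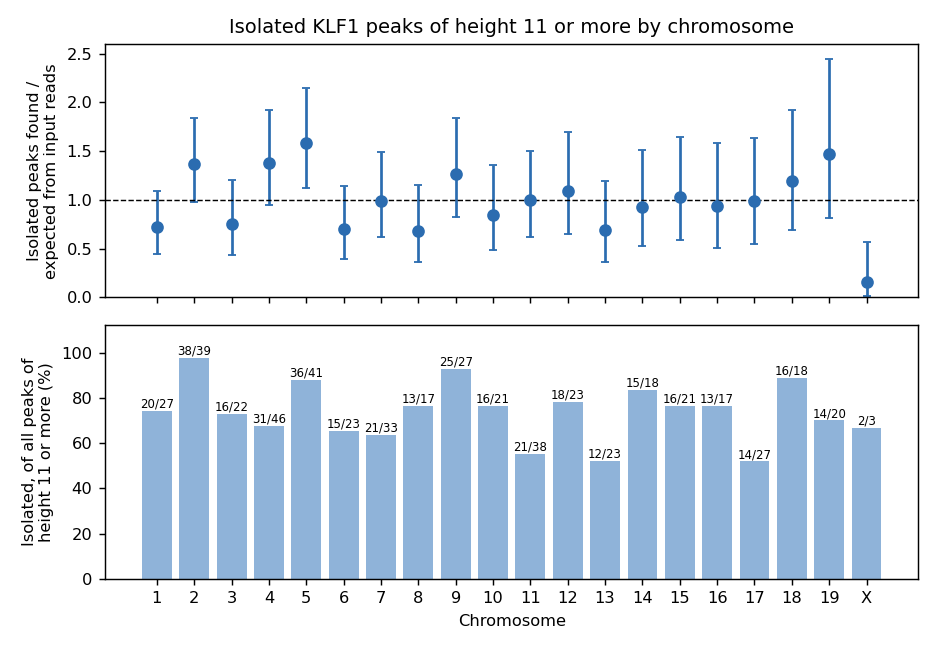
Isolated KLF1 peaks of height 11 or more on each chromosome. The upper panel gives the number found over that expected from input reads with exact 95% intervals, and the lower gives the share of all peaks of that height that were isolated, in percent, with counts. The interval lies above 1 on chromosome 5 and below 1 on chromosome X.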

How the data were processed

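Per the labels, the deposited read files and peak list combine the runs on SOLiD System 2.0 and 3.0. The fourth column of the authors' peak list is a signal, the height of the ChIP pileup. With every ChIP read extended 100 bp beyond its 5' end, the count over the summit matched this height exactly at 945 of 945 peaks. The deposited read files give chromosome, position and strand of each read (other values, no unit) on mm9, per the submitters' processing notes. For the aligner and peak caller, name and version are not given in the sources used here. Within a library, 0 reads shared position and strand. Coordinates are printed as deposited.

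From these files the summit, flank, strand, width and neighbour counts were computed for all listed peaks. One read was added to each count where a single site's fold is counted. Members, comparisons and lists were chosen with earlier results of these data known. Named sites are the 20 highest members, the 5 highest and 5 lowest flank ratios, the 3 with most input, the 5 most remote and 2 on each side of the distance limit. Any other site was chosen after its values were seen. The counting was tested on simulated data. Planned counts of motifs and genes were not run, since the gene table at hand was of another build. Software: SciPy 1.17.1 for the tests, matplotlib 3.10.9 for plots, and NumPy 2.4.6 with pandas 2.3.3 under Python 3.11.15.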

Additional observations from a re-analysis of the deposited data

How the results depend on the processing

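The 10 results were computed again under 51 alternatives. In 39 the value kept within the limits set (counts within 1.5 times, ratios and medians within the 95% interval, tests on the same side of 0.05) and in 12 it moved. Within those limits, members at 5-fold or more at the summit fell from 372 to 346 with reads extended 150 bp, and members with a flank ratio of 2 or more ranged from 220 to 278. After seeing the data, 10 of these settings were added. Members at 10-fold or more at the summit numbered 203. The pooled flank ratio was 3.41 in flanks up to 200 bp, 2.18 in flanks up to 500 bp, 3.56 for members of height 15 or more and 2.69 without the 20 highest members. Median input at the summit was 1.64 times the chromosome mean with reads extended 150 bp beyond the 5' end and 1.19 times the input 2000 to 10000 bp away. Median width was 207 bp at that extension and 146.5 bp at height 15 or more. Members with an unlisted stretch nearby numbered 129 at 7 or more reads, 2 at 9 or more and 16 within 10 kb. The cause was not tested beyond what each setting changes by its construction. Leaving out the 14 one-sided members kept each of the 9 results it was applied to, with a flank ratio of 2.91. The strand difference between isolated and grouped peaks missed the threshold under each alternative tried, with exact p from 0.228 to 0.951 and a difference from -0.346 to 1.73 percentage points, so its sign was not stable. No paired analysis was possible because the sequencing runs were deposited combined, and for the same reason no run could be left out. The alternatives for motifs and genes were not run. With a median of 3 input reads at a summit, single ratios are known only within wide intervals.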

Other observations

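At one member the pileup nearby was higher than the listed one. This was 3350104 on chromosome 16, with 11 ChIP and 3 input reads at the listed summit. At 3351101, still within 1 kb, 27 ChIP reads and 27 input reads lay over 1 position, 2.72-fold after scaling and so below the 5-fold that every listed summit reached. The flanks of the listed summit held 1 ChIP read and no input read. Near the site on chromosome 4 at 62177802 as well, 10 ChIP reads met 13 input reads at 62176981, 2.13-fold.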
